A study of Mus musculus with 6 samples.

Results

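The genes described here are the 23 named genes at the start of mouse chromosome 11 whose expression was listed as altered in small intestinal organoids lacking Smarcad1. They were taken from the 1420 genes of the deposited list by position, as rows of chromosome 11 with a start below 20 Mb. Positions are those of the mouse genome build GRCm38, and symbols that are RIKEN clone names or predicted-gene (Gm) numbers were left out. The interval itself was chosen with earlier results of these data known, including its excess of listed genes. All 23 are annotated as protein-coding. The list holds only genes that passed the authors' DESeq2 test of KO against WT, so entry in the list already required a difference between the groups, and every difference given below is a description of the listed genes and not a test. The remaining genes of the interval have no values in the list and were not analysed here.

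Intestinal organoids are cultured epithelia that form from isolated crypts embedded in Matrigel. The 3 wild-type (WT) and 3 Smarcad1 knockout (KO) libraries were all of C57BL/6 strain and stated as biological triplicates. They were made from passaged cultures collected 5 days after reseeding, with about 600 organoids per condition. The submitters' sources differ on the KO: the sample and series labels name Vil-Cre, active in the intestinal epithelium, whereas the growth protocol states deletion in all cells in very early development with ZP3-cre, and littermate controls. Cre removes loxP-flanked exons that code for the ATP-binding part of Smarcad1, and whether the WT littermates carried loxP sites or Cre, and whether the cultures came from separate mice, is not given in the sources used here. The spread between libraries may therefore be technical in part.

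SMARCAD1 is a SWI/SNF-like chromatin remodeller, an enzyme that uses ATP to move or evict nucleosomes, and is known for keeping silent, H3K9-methylated chromatin in place through DNA replication. Such chromatin can cover stretches of neighbouring genes, and the genes are ordered here by position along the chromosome. No chromatin data were used here, so the part of such chromatin in the differences below was not tested. The organoid epithelium holds absorptive enterocytes, mucus-secreting goblet cells, Paneth cells that make antimicrobial proteins, and the stem cells that renew them. The named genes of this interval belong to no single pathway: they include cytoskeletal regulators, signalling enzymes, chromatin and repair factors, ribosome biogenesis factors and vitamin or nucleoside handling genes.

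Levels are reads scaled to 1e+06 reads of the library (RPM), not divided by transcript length, so they are compared between libraries and not between genes. Smarcad1 itself stood at 105, 94.7 and 96.3 RPM in WT and at 21.7, 21.3 and 24.0 RPM in KO, a log2 change of -2.14 (SE 0.10, n = 3 per group), so the labels match the level of the targeted gene. Library depth, inferred from the smallest step between values, ranged from 1.24e+07 to 1.57e+07 reads, and 3 reads corresponded to 0.192 to 0.242 RPM. Of 7 epithelial markers Krt18 alone is in the list, at 975 to 1029 RPM in WT and 1303 to 1923 RPM in KO. Markers of intestinal epithelial cell types were read in every library. Among them were Lyz1 of Paneth cells (2953 ± 62.2 RPM in WT, mean ± SD, n = 3), Fabp1 of enterocytes (3748 ± 274 RPM) and Muc2 of goblet cells (385 ± 42.3 RPM). None of the fibroblast, endothelial, enteroendocrine and stem cell markers considered is in the list. Since the list holds only genes that differed, a marker's absence from it, here and below, does not show that a cell type was absent. All 4 listed Paneth markers of 5 were higher in KO (summed level 6121 to 6718 RPM in WT, 14140 to 18019 RPM in KO) and all 3 listed enterocyte markers of 5 were lower (7321 to 8913 RPM in WT, 4057 to 4325 RPM in KO). Both listed goblet markers of 4 were higher (1230 to 1340 RPM in WT, 1880 to 3304 RPM in KO) and Dclk1, the listed tuft marker of 2, was lower (15.5 to 26.9 RPM in WT, 10.9 to 12.2 RPM in KO). In such bulk samples fewer cells of a type and less RNA per cell cannot be told apart, and the part of this shift in the values below was not tested.

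The listed genes were dense at the very start of the chromosome. The interval was chosen with this excess known. Its comparison with the genome and with other chromosomes therefore restates that choice and is not a test. Below 20 Mb, 23 of 107 annotated protein-coding genes were listed (21.5%), against 1309 of 19864 over the genome (6.59%), RIKEN and Gm symbols left out of both. The same stretch of the other chromosomes, X and Y included, held at most 15.2% (7 of 46 genes, chromosome 3) and at least 2.59% (3 of 116 genes, chromosome X). No protein-coding gene is annotated in the first 3 Mb. From there the listed share was 7 of 18 genes (38.9%) at 3 to 4 Mb, 6 of 22 (27.3%) at 4 to 5 Mb, 4 of 21 (19.0%) at 5 to 6 Mb and 3 of 15 at 6 to 7 Mb. The next 1 Mb bins, 7 to 8 Mb and 8 to 9 Mb, held no listed gene among 3 annotated genes each, and the bin at 9 to 10 Mb held 1 of 3. At the genome-wide share 0.198 listed genes would fall in each of these bins, so they are too sparse in genes to place an end.

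Counted up to the first empty bin, the dense stretch ran from Sfi1 to H2afv, 3313 kb from the start of the former to the end of the latter, and contained 20 of the 23 genes. Between 3 and 7 Mb 20 of 76 annotated genes were listed (26.3%), and between 7 and 20 Mb 3 of 31 (9.68%), where 2.04 would be listed at the genome-wide share. The 3 genes beyond the dense stretch lay far apart: Upp1 began 2674 kb after the end of H2afv, Plek began 7835 kb after the end of Upp1, and Pno1 followed close to Plek. The 7 Mb end was read as the first 1 Mb bin with annotated but no listed gene, a measure chosen after the counts were seen. The measure chosen earlier, the highest point of a running sum of listed genes minus the genome-wide listed share of annotated genes within 60 Mb, gave a different end. That sum stood at 15.0 genes at 7 Mb, stayed between 13.8 and 17.5 genes from there to 51 Mb, then climbed to its maximum of 30.3 at 56 Mb. The second climb came from a separate dense stretch at 51 to 56 Mb, where 21 of 67 annotated genes were listed (31.3%), against 10 of 185 (5.41%) between 20 and 51 Mb and 71 of 1163 (6.10%) from 56 Mb to the end.

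**Figure D1:**
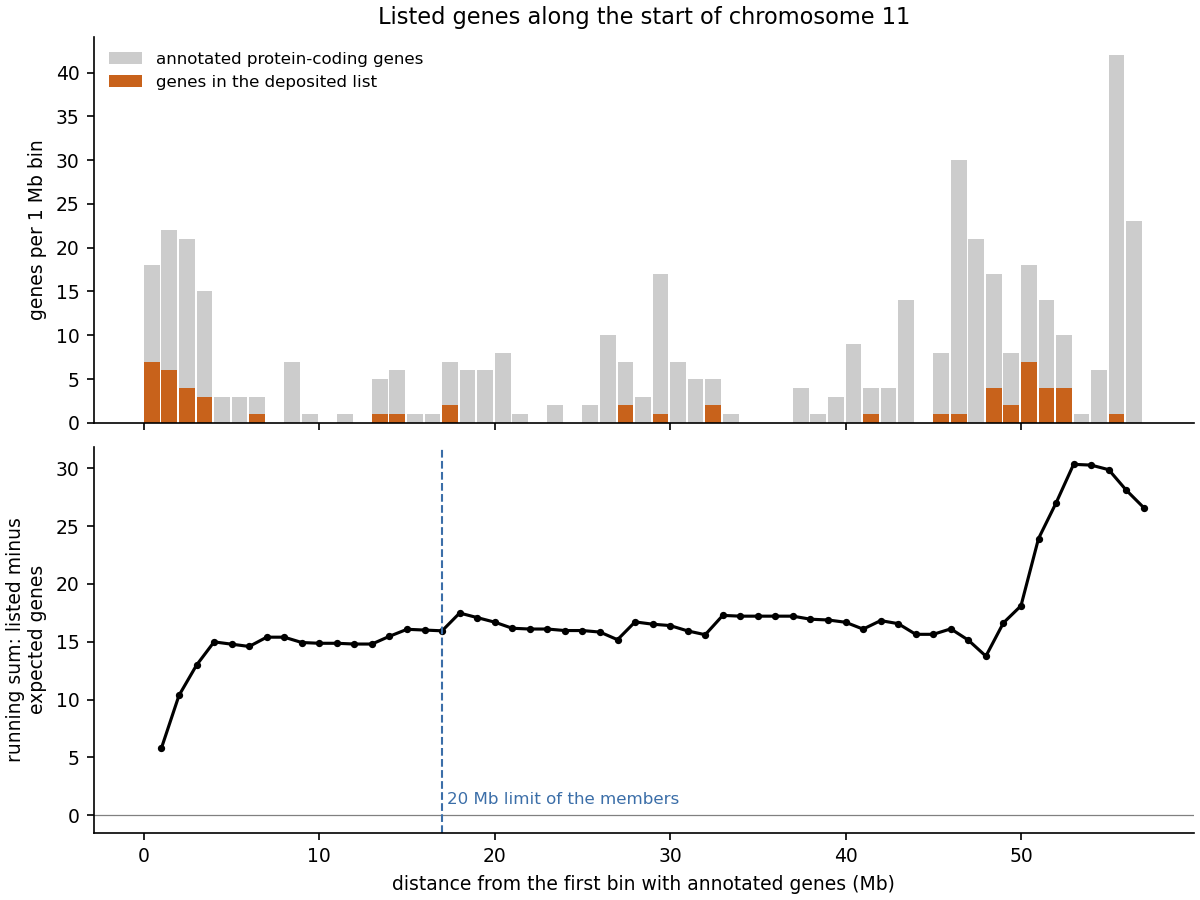
The upper panel gives the number of annotated protein-coding genes (grey) and listed genes (orange) in each 1 Mb bin, and the lower panel the running sum of listed minus expected genes, both against distance in Mb from the first bin with annotated genes. The first 4 bins hold 20 listed genes and carry the sum to 15.0, the sum stays between 13.8 and 17.5 over the following bins, and a second dense stretch lifts it to 30.3.

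Listed genes in the dense stretch were interspersed with unlisted ones: from Sfi1 to H2afv 49 of 69 annotated genes were not in the list. Taking genes in order of start, the 23 genes formed 19 runs, of which 3 held more than a single gene: Tcn2 with Pes1, Hormad2 with Mtmr3 and Ascc2, and Camk2b with Nudcd3. The first of these runs pairs a gene that was lower in KO with one that was higher, and so does the third, whereas all 3 genes of the middle run were higher. Limk2, with the largest change among the genes read at more than 100 RPM in both groups, lay between the unlisted Pik3ip1 and Rnf185. Emid1 lay between the unlisted Rhbdd3 and Kremen1.

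The log2 change was positive, that is higher in KO, for 15 of the 23 and negative for 8, beside 52.6% positive over the whole list. Their median log2 change was 0.48, on log2(RPM + 0.1), against 0.38 over the list, and their median absolute log2 change was 0.64 in both. The 111 listed genes from 20 Mb to the end of chromosome 11 had a median of 0.38 (59 higher, 52 lower), and the 56 listed genes of chromosome 17 between 15 and 35 Mb, another stretch with a raised listed share (52 of 433 annotated protein-coding genes), a median of 0.56 (38 higher, 18 lower). A log2 change of at least 1 in size was found for 7 of the 23 genes, beside 27.1% of the list. The KO and WT values did not overlap for 22 of the 23, H2afv being the exception, beside 98.5% of the list: 14 lay apart above WT (beside 51.3%) and 8 below (beside 47.2%). By limma all 23 passed an adjusted p of 0.05, as did 99.9% of the list, which was selected on this contrast. They were 15 higher (beside 52.5%) and 8 lower (beside 47.4%). Of the 23, 20 passed with a replicate block (beside 95.1% of the list), without Selenom, Mtmr3 and H2afv, and 19 with libraries centred (beside 95.7%), without these 3 and Mrps24. With a library left out 17 to 22 passed, beside 80.1 to 98.9% of the list. The lowest number, 17, was without WT replicate 1 (beside 81.6%), when Tcn2 and Nudcd3 also missed the threshold.

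Of the 20 genes below 7 Mb 15 were higher in KO and 5 lower, and the 3 genes further on were all lower. Spearman's rho of the log2 change with the start was -0.36 over the 23 genes, and -0.22 without KO replicate 3, whereas that of the absolute change with the start was -0.01. The points share the same 6 libraries, so these are descriptions. The strand was minus for 15 and plus for 8, beside 694 and 726 over the list. Neighbouring genes of the 23 had the same direction in 11 of 22 pairs. Changes of opposite sign therefore lay side by side along the dense stretch, as with Camk2b (1.67) and the next listed gene Nudcd3 (-0.35).

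**Figure D2:**
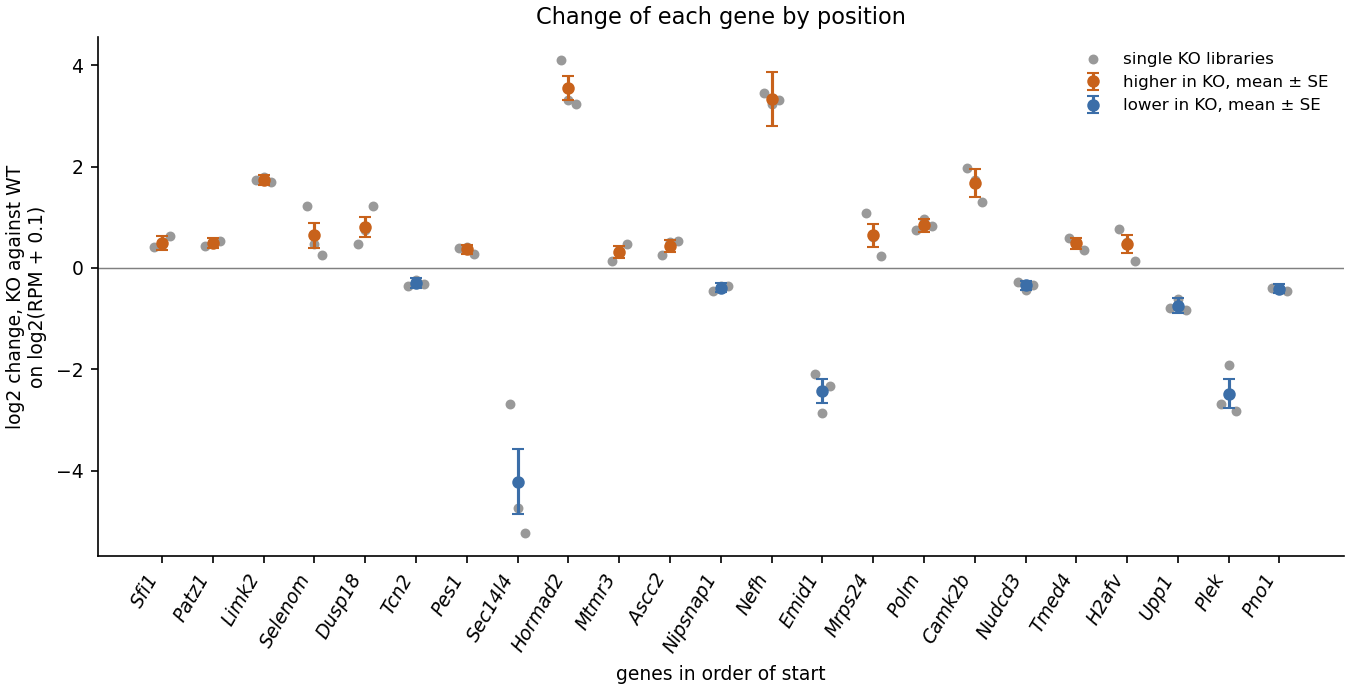
The log2 change of KO against WT on log2(RPM + 0.1) is plotted for each of the 23 genes in order of start, with its standard error from limma (n = 3 per group) and grey points for each KO library against the WT mean. Values run from -4.22 for Sec14l4 to 3.55 for Hormad2, which is at 0 reads in WT so that its value is set by the pseudocount, and the last 3 genes, Upp1, Plek and Pno1, lie below 0.

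The sequence just upstream of the start is given for the named genes whose log2 change reached 1 in size. Their RefSeq start also had to lie within 1 kb of the 5' end of the listed gene. Sec14l4 (log2 change -4.22), Nefh (3.33) and Plek (-2.48) had no such RefSeq start, so their sequences are not given. The sequence is also given for Dusp18, whose upstream region separates it from a neighbour. Each run is the 250 bases before the start in GRCm38.p6, written 5' to 3' on the gene's own strand, and capitals mark matches to TATAAA (the TATA box), to CCAAT (the box of that name) or to GGGCGG (the core of a GC box), each searched on both strands, with overlapping matches merged. Only copies of the GC box overlapped each other.
Limk2, chr11:3409239-3409488, minus strand: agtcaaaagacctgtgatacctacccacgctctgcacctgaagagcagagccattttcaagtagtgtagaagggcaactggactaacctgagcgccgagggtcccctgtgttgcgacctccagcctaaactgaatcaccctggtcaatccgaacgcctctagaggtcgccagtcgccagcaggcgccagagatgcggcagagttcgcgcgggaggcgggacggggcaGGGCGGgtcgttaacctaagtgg
Hormad2, chr11:4441083-4441332, minus strand: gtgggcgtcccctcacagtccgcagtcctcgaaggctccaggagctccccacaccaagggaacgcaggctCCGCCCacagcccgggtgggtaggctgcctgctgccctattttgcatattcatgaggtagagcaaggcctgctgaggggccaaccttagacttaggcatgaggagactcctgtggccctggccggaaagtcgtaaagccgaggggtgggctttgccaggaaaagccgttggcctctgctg
Emid1, chr11:5152231-5152480, minus strand: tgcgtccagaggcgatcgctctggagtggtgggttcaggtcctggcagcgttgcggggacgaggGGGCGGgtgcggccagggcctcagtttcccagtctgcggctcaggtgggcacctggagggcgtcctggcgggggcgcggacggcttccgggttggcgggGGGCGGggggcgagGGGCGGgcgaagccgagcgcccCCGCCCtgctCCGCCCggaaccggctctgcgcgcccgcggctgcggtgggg
Camk2b, chr11:6065749-6065998, minus strand: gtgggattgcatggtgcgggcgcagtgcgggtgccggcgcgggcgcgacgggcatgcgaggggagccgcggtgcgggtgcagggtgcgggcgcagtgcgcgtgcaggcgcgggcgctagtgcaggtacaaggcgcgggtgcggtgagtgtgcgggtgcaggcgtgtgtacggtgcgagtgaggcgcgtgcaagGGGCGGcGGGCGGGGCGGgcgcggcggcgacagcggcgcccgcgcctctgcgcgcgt
Dusp18, chr11:3894990-3895239, plus strand: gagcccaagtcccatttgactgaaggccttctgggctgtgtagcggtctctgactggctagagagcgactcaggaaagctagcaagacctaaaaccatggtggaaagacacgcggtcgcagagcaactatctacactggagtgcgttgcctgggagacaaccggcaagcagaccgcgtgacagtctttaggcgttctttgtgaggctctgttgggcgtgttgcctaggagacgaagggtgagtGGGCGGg

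All 5 runs held GGGCGG, and none held TATAAA or CCAAT. The CpG dinucleotide occurred 44 times in the run of Camk2b, 31 times in that of Emid1, 17 times in that of Limk2, 13 times in that of Dusp18 and 10 times in that of Hormad2. RefSeq promoters were found by symbol for 17 of the 23 genes, leaving out Sfi1, Tcn2, Sec14l4, Mtmr3, Nefh and H2afv. GGGCGG was present upstream of 10 of the 17 (58.8%), beside 32.7% of all 32851 promoters of the table, TATAAA of 4 (23.5%, beside 12.4%) and CCAAT of 3 (17.6%, beside 33.8%). The median number of CpG dinucleotides was 12 in the 17 and 6 in all promoters. The comparison is with all promoters and not with those of the other listed genes, for which no share was computed. Whether these differences are particular to the interval was therefore not tested. GGGCGG was upstream of 8 of the 11 matched genes that were higher in KO and of 2 of the 6 that were lower. For Mrps24 and Plek the RefSeq start lay 7979 and 43663 bases from the 5' end of the listed gene, so those windows may belong to another transcript.

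Genes of the cytoskeleton and the extracellular matrix included Limk2 and Emid1, which changed by more than 1 on the log2 scale in opposite directions. Of 6 such genes 3 were higher and 3 lower in KO, and 4 changed by at least 1 on the log2 scale, beside 27.1% of the list. This group and the following ones were formed by general knowledge of function and were not tested. Limk2 (chr11:3344256-3409189), a kinase that inactivates the actin-severing protein cofilin, was read at 184, 185 and 165 RPM in WT and at 593, 617 and 576 RPM in KO. The 2 groups were far apart relative to their spread (178 ± 11.5 against 595 ± 20.8 RPM, mean ± SD, n = 3), a 3.35-fold higher mean level in KO (log2 change 1.74, SE 0.10). Emid1 (chr11:5106265-5152257), which codes for a secreted protein with an EMI domain and collagen-like repeats, went the other way: it was read at 44.5, 58.9 and 62.8 RPM in WT and at 12.8, 7.41 and 10.8 RPM in KO. Every KO library was below every WT library, and the KO mean was 18.7% of the WT mean (log2 change -2.43, SE 0.23).

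Nefh (chr11:4938754-4948064), the neurofilament heavy chain best known from axons, was at 0, 0.0639 and 0.392 RPM in WT and at 2.09, 1.78 and 1.89 RPM in KO. These are 0, 1 and 6 reads against 26, 26 and 27 reads, so the gene was near the limit of detection in WT and low but even across the KO libraries. The log2 change of Nefh was 3.33 (SE 0.54), and 1.36 with a pseudocount of 1. It was 2.83 without WT replicate 1, 3.19 without WT replicate 2 and 3.98 without WT replicate 3. None of the 5 markers of neurons and glia considered (Tubb3, Snap25, Syp, Sox10, S100b) is in the list. Plek (chr11:16971206-17052381), pleckstrin, a protein kinase C substrate of platelets and leukocytes, was at 1.94, 2.81 and 1.70 RPM in WT and at 0.242, 0.480 and 0.210 RPM in KO, or 95 reads in all against 13. Its log2 change was -2.48 (SE 0.29), and -1.26 with a pseudocount of 1. Of 8 immune markers 2 are in the list, Itgam and Lyz2, with a summed level of 10.6 to 12.5 RPM in WT and 8.27 to 11.7 RPM in KO, Itgam being lower and Lyz2 higher. Their part in the Plek difference was not tested.

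Sfi1 (chr11:3131850-3193463), a centrin-binding protein of the centriole, was at 33.8, 36.0 and 28.1 RPM in WT and at 43.0, 44.3 and 50.2 RPM in KO (log2 change 0.49, SE 0.13). It overlaps Drg1 on the same strand, so reads of the shared stretch may be uncertain. Nudcd3 (chr11:6105691-6200415), a chaperone-like protein linked to the stability of dynein intermediate chain, was at 158, 150 and 155 RPM in WT and at 128, 114 and 123 RPM in KO (log2 change -0.35, SE 0.10). Both differences were small but larger than the spread between libraries.

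**Figure D3:**
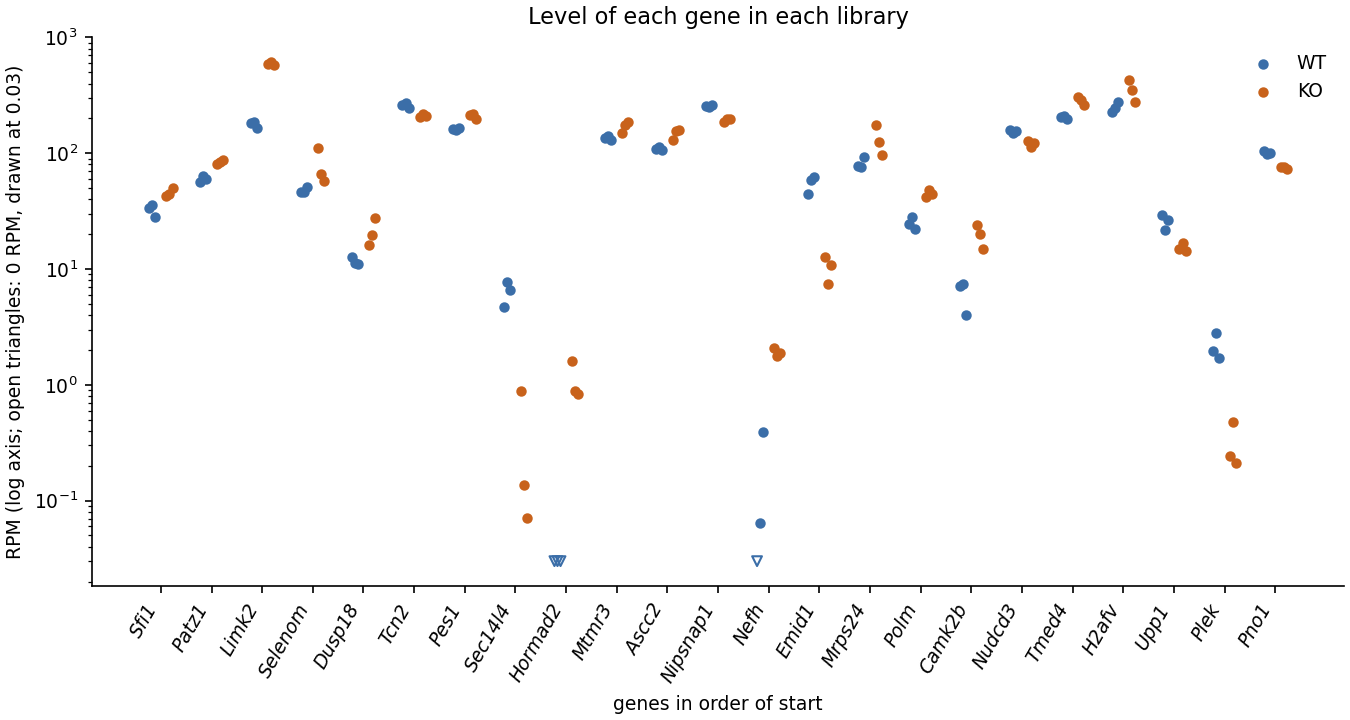
Each point is the level of a gene in a single library, in RPM on a log axis, for WT (blue, 3 libraries) and KO (orange, 3 libraries), with genes in order of start and open triangles for libraries at 0 RPM. The groups are separated for 22 of the 23 genes and overlap for H2afv, and Hormad2 is at 0 in all 3 WT libraries.

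Among the signalling enzymes, 3 of 4 were higher in KO, beside 52.6% of the list. Camk2b (chr11:5969644-6066362), the beta subunit of calcium/calmodulin-dependent protein kinase II, was at 7.07, 7.41 and 4.05 RPM in WT and at 23.8, 20.1 and 14.8 RPM in KO, a 3.17-fold higher mean (log2 change 1.67, SE 0.28). The lowest KO library was above the highest WT library. Dusp18 (chr11:3895240-3901296), a dual-specificity phosphatase, was at 12.7, 11.4 and 11.03 RPM in WT and at 16.3, 19.8 and 27.4 RPM in KO (log2 change 0.82, SE 0.20). The KO libraries were spread more widely than the WT ones. Mtmr3 (chr11:4480868-4594863), a phosphatase of phosphatidylinositol 3-phosphate that restrains autophagosome formation, was at 135, 141 and 131 RPM in WT and at 149, 174 and 187 RPM in KO (log2 change 0.32, SE 0.12).

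Sec14l4 (chr11:4031462-4048024), of the Sec14-like family of lipid-binding transfer proteins, had the most negative change of the 23. It was at 4.74, 7.79 and 6.59 RPM in WT and at 0.886, 0.137 and 0.0701 RPM in KO. In reads this was 61, 122 and 101 against 11, 2 and 1, so the KO libraries were near the limit of detection and the KO mean was 5.71% of the WT mean, or 1.63% without KO replicate 1, which held most of the KO reads. The log2 change was -4.22 (SE 0.63) with a pseudocount of 0.1 RPM, -2.46 with a pseudocount of 1 and -4.98 without KO replicate 1. Its neighbours and relatives Sec14l3 and Sec14l2, the next members of the family along the chromosome, are not in the list.

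All 5 genes grouped under transcription, chromatin, repair and meiosis were higher in KO, beside 52.6% of the list. Among them H2afv had overlapping groups, and it missed the limma threshold with a replicate block and with libraries centred. Hormad2 (chr11:4345814-4441105), a HORMA-domain protein of the meiotic chromosome axis, was at 0 RPM in all 3 WT libraries and at 1.61, 0.892 and 0.841 RPM in KO, from 20, 13 and 12 reads. Against a floor of 3 reads per WT library (0.207 RPM on average), the KO mean was at least 5.39-fold higher, or 2.43 on the log2 scale, a bound that covers counting error only. The fitted log2 change of Hormad2 depends on the pseudocount, at 3.55 with 0.1 RPM and 1.06 with 1 RPM. None of 3 germ cell markers considered (Sycp3, Ddx4, Dazl) is in the list. Polm (chr11:5827860-5838016), the DNA polymerase mu of end joining, was at 24.4, 28.3 and 22.1 RPM in WT and at 41.5, 48.4 and 44.2 RPM in KO (log2 change 0.84, SE 0.13). Patz1 (chr11:3288874-3309083), a POZ zinc finger transcription factor, was at 55.96, 64.1 and 60.1 RPM in WT and at 81.0, 84.1 and 87.1 RPM in KO (log2 change 0.49, SE 0.10). The groups were separate for all 3 genes.

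Ascc2 (chr11:4637747-4685699), a ubiquitin-binding subunit of the activating signal cointegrator complex that takes part in alkylation repair, was at 108, 114 and 106 RPM in WT and at 131, 157 and 158 RPM in KO (log2 change 0.44, SE 0.11). H2afv (chr11:6427229-6444443), which codes for the histone variant H2A.Z.2, was at 225, 247 and 278 RPM in WT and at 427, 354 and 276 RPM in KO (log2 change 0.48, SE 0.18). It was the only gene of the 23 whose groups overlapped, since the third KO library lay just below the highest WT library.

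Genes of the ribosome and the mitochondrion split evenly, 2 higher and 2 lower. Pes1 (chr11:3963975-3980004), a subunit of the PeBoW complex that matures the large ribosomal subunit, was at 161, 159 and 167 RPM in WT and at 212, 217 and 197 RPM in KO (log2 change 0.36, SE 0.09). Pno1 (chr11:17203198-17211568), which assists assembly of the small ribosomal subunit, was at 104, 98.6 and 101 RPM in WT and at 76.8, 76.7 and 73.8 RPM in KO (log2 change -0.42, SE 0.09). These ribosome assembly factors thus differed in opposite directions, each with little spread.

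Mrps24 (chr11:5703983-5715680), a protein of the small mitochondrial ribosomal subunit, was at 77.5, 76.7 and 92.0 RPM in WT and at 174, 125 and 95.6 RPM in KO (log2 change 0.64, SE 0.22). Without KO replicate 1 the log2 change was 0.42. The groups were separated only narrowly, and the gene overlaps Urgcp on the same strand. Nipsnap1 (chr11:4873951-4894200), a mitochondrial matrix protein that can mark damaged mitochondria for removal, was at 255, 249 and 259 RPM in WT and at 186, 198 and 199 RPM in KO (log2 change -0.39, SE 0.09).

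Of the genes of vitamin, nucleoside, redox and secretory functions 2 were higher and 2 lower. Tcn2 (chr11:3917192-3932159), transcobalamin, the plasma carrier that delivers vitamin B12 to cells, was at 263, 273 and 247 RPM in WT and at 204, 219 and 210 RPM in KO (log2 change -0.30, SE 0.10). Upp1 (chr11:9118103-9136170), the uridine phosphorylase that splits uridine into uracil and ribose 1-phosphate, was at 29.5, 21.7 and 26.7 RPM in WT and at 14.8, 16.8 and 14.4 RPM in KO (log2 change -0.75, SE 0.14). In both genes every KO library was below every WT library.

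Tmed4 (chr11:6270369-6274870), a p24-family cargo protein of the early secretory pathway, was at 204, 210 and 197 RPM in WT and at 306, 291 and 260 RPM in KO (log2 change 0.48, SE 0.10). Selenom (chr11:3514684-3517351), an endoplasmic reticulum selenoprotein with a thioredoxin-like fold, was at 46.1, 46.1 and 51.6 RPM in WT and at 111, 66.0 and 57.0 RPM in KO (log2 change 0.64, SE 0.25). The first KO library of Selenom was well above the other 2, and without it the log2 change was 0.36. The third KO library exceeded the highest WT library by little.

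The KO libraries stood in this order, with the first highest and the third lowest, for 8 of the 23 genes, and in the opposite order for 6. The 8 were Selenom, Mrps24, H2afv and Pno1, with longest annotated transcripts of 1478, 995, 1633 and 1544 bases, Hormad2 and Tmed4, with 1969 and 2003 bases, and Sec14l4 and Camk2b, with 3238 and 4125 bases. The 6 in the opposite order were Sfi1, Patz1, Dusp18, Mtmr3, Ascc2 and Nipsnap1. Over the 23 genes Spearman's rho between transcript length and the log2 ratio of KO replicate 1 to KO replicate 3 was -0.52, and over the 1396 listed genes with an annotated length it was -0.49. Between WT replicates 1 and 3 it was 0.43 over the 23 genes, and that of the KO against WT log2 change with length was 0.17. The coefficient of variation among KO libraries had a median of 8.41% over the 23 genes. Among WT libraries it was 7.28% without Hormad2, which has no such value at 0 RPM. It was higher in KO than in WT for 13 genes. Over the whole list the medians were 13.4% in KO and 8.34% in WT, and it was higher in KO for 930 genes. The part of transcript length in the differences of Selenom, Mrps24 and H2afv was not tested.

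**Figure D4:**
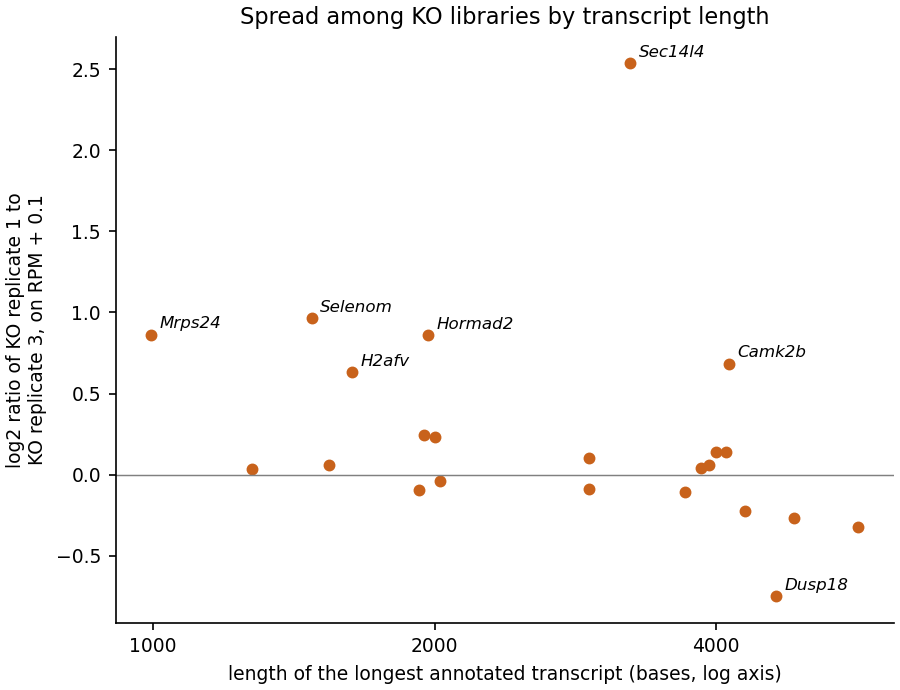
Each point is a gene of the 23, with the length of its longest annotated transcript in bases on a log axis and the log2 ratio of KO replicate 1 to KO replicate 3 on RPM + 0.1. Mrps24 (995 bases) and Selenom (1478 bases) lie well above 0, as does Camk2b (4125 bases), and Sec14l4, with 11 reads against 1, lies highest.

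Of the 23 genes several share their locus with a gene on the other strand: Pes1 with 4930556J24Rik, Nudcd3 with A730071L15Rik, Plek with Cnrip1 and Pno1 with Wdr92. The libraries were directional, but the strand setting of the counting is not given in the sources used here, so values of these genes may include reads of the partner. The list names a second feature for the rows of Pes1 (4930556J24Rik) and Pno1 (Wdr92).

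The interval also held 2 listed RIKEN genes that the naming rule left out, and both were higher in KO. 8430429K09Rik (chr11:3452365-3479831, plus strand), annotated as a processed transcript, was at 0.233, 0.128 and 0 RPM in WT, or 3, 2 and 0 reads, and at 6.92, 7.07 and 6.59 RPM in KO (log2 change 5.15, SE 0.41). With so few reads in WT, the size of this change depends on the pseudocount. 8430429K09Rik begins 43176 bases beyond the end coordinate of Limk2, which is on the minus strand. These 2 are not adjacent: the unlisted Rnf185 (chr11:3415982-3452363, minus strand) lies between them and ends just before the start of 8430429K09Rik. 8430429K09Rik and Limk2 were each higher in every KO library than in any WT library. 4921536K21Rik, on the minus strand, was at 0.699, 0.319 and 0.261 RPM in WT and at 2.98, 2.68 and 2.66 RPM in KO (log2 change 2.54, SE 0.29). The WT values are 9, 5 and 4 reads, so the size of this change also depends on the pseudocount. 4921536K21Rik is transcribed away from Dusp18, which begins 142 bases beyond its end coordinate. The stretch between both genes thus lies within the upstream run of Dusp18 printed above. Both were higher in KO.

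At the edge of the interval the last gene inside was Pno1 and the first listed genes outside were Actr2 (chr11:20062304-20112913), a subunit of the actin-nucleating Arp2/3 complex, with a log2 change of -0.46, and Rab1a (chr11:20201432-20226856), a GTPase of endoplasmic reticulum to Golgi traffic, with -0.32. Both were lower in KO, as were the 3 genes inside the interval beyond 7 Mb.

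Of 52 relatives and partners of the 23 genes, 6 were in the list, beside 6.59% of annotated protein-coding genes over the genome. The 52 included Limk1, the other Camk2 subunits and the Tmed family. They also included the unlisted Sec14l2 and Sec14l3, which lie within the interval near Sec14l4. Cubn, the intestinal receptor for vitamin B12 bound to intrinsic factor, was higher in KO, at 33.2 ± 9.49 RPM in WT and 114 ± 16.7 RPM in KO (mean ± SD, n = 3). Tmed5, at 123 ± 10.5 against 94.6 ± 6.53 RPM, Tmed7, Sec14l1, Mtm1 and Bop1, a partner of Pes1, were lower. Tcn2 and Cubn, which act at different steps of vitamin B12 handling, thus differed in opposite directions, and so did Tmed4 and the 2 listed Tmed relatives.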

How the data were processed

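Poly(A)-selected directional libraries of 3 WT and 3 KO organoid samples were sequenced as 50 bp paired-end reads. Per the labels and the study's methods, the authors trimmed reads with Trim Galore 0.4.2, mapped them to GRCm38 with HISAT2 2.0.3, used SeqMonk to count uniquely mapped reads on the merged exons of each gene, and kept genes that passed DESeq2 on raw counts. The deposited values are RPM, scaled by the authors to 1e+06 reads of each library. A column of the authors' false discovery rates was not used.

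Here limma 3.58.1 in R 4.3.3 was fitted to log2(RPM + 0.1) over all 1420 rows, with no covariate, and p-values were adjusted by Benjamini-Hochberg. No count test was run, since the values are RPM. Depth and read numbers were inferred by taking the smallest step between values as 1 read (or read pair), of which all values were whole multiples within 0.001 reads. Only listed rows entered the fit, 27.5 to 30.6% of each library's reads. On simulated data for this comparison over 1420 genes, 197 of 200 genes given a log2 change of 1 were called, with 5 unchanged genes. Smaller changes, as most of the 23 genes had, were not simulated.

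Positions were compared with GENCODE M21 (GRCm38), in which all 23 genes matched by symbol with identical start and end, and promoters with RefSeq GRCm38.p6. Genes were grouped by general knowledge of their function, and all genes meeting the position rule are named, with the RIKEN rows of the interval, the rows just past 20 Mb and Smarcad1. The members, lists and tests were chosen with earlier results of these data known. Alternatives were a pseudocount of 1, centring of libraries, removal of genes whose mean was in the lowest 25%, a replicate block, leaving out each library, other bins and denominators, a 10 Mb limit and inclusion of RIKEN and Gm genes.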

Additional observations from a re-analysis of the deposited data

How the results depend on the processing

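The median log2 change of the 23 genes was 0.48, and stayed between 0.41 and 0.47 without each library in turn, at 0.47 with a pseudocount of 1, at 0.39 with libraries centred on their median and at 0.44 over the 17 genes left by the filter on low values. The number higher in KO was 15 in every refit of all 23 genes, 11 of 17 after the filter and 17 of 25 with the RIKEN genes. Groups did not overlap for 22 to 23 genes without each library, beside 98.5 to 99.8% of the list. Of 224 single-gene values under the alternatives none changed sign and 11 moved beyond the spread between libraries, 4 low genes (Sec14l4, Hormad2, Nefh and Plek) with the pseudocount of 1 and 7 with centring, which shifts all genes by -0.09. Smarcad1 stood at -2.23 with centring and between -2.20 and -2.09 without each library. The rank correlation of change with start was between -0.39 and -0.22 without each library, and that of absolute change between -0.01 and 0.08. Without KO replicate 3 the former was -0.22, so it rests in part on that library.

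The end of the excess was 56 Mb by the running sum, with 2 Mb bins, with other expected shares and with RIKEN and Gm genes, and 55 Mb with 5 Mb bins. It was 7 Mb by the first bin without a listed gene, chosen after seeing the data and resting on bins of 3 annotated genes. Correlations between same-numbered KO and WT libraries were -0.08, 0.09 and 0.06. Over rows selected for a difference between the groups, such values cannot show whether the samples were matched. With a replicate block the median stayed 0.48, and limma called 1351 of 1420 genes and 20 of the 23. The list holds only genes selected on this contrast, so neither unlisted genes nor a rate of false calls could be measured, and genes under 3 reads per library are below what this depth resolves.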
